A study of Mus musculus with 2 samples.

Results

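Oxidative phosphorylation genes encode the subunits of the respiratory chain complexes and of ATP synthase. The members were taken by gene symbol, as all genes named for subunits of complex I (Nduf genes of the a, b, c, s and v series), complex II (Sdha to Sdhd), complex IV (Cox4 to Cox8) and ATP synthase (Atp5), together with the mitochondrially encoded protein genes. This rule found 88 of the 25814 genes with counts in brain or lung. Of these, 77 were nuclear, with 37 for complex I, 4 for complex II, 17 for complex IV and 19 under Atp5 symbols, and 11 were encoded in mitochondrial DNA, with 6 for complex I, 1 for complex III, 3 for complex IV and 1 for ATP synthase. Nuclear subunits of complex III were not analysed here. The symbol rule also took up 4 genes that are not subunits or not known to be (Atp5s, Atp5sl, Atp5l2 and the pseudogene Atp5l-ps1), and they were kept as members.

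The cells were sorted from mice carrying Nes-GFP, a transgene in which regulatory elements of Nestin, an intermediate filament gene of neural stem cells and several other cell types, drive green fluorescent protein. The 2 groups were Nes-GFP+ cells of the brain and Nes-GFP+ cells of the lung, both from animals about 6 weeks old and without a treatment named in the labels. The labels give the strain as C57BL/6, whereas the methods name CD1 or mixed CD1 and C3H stock as the wild-type background. The study asked whether the lung holds cells resembling neural stem cells of the brain. Each tissue gave 1 single-cell library, so no difference between tissues or classes could be tested across samples, and no p-value is given. All intervals below are exact 95% intervals for counting error only.

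Complexes I to IV pass electrons from NADH and succinate to oxygen and build a proton gradient across the inner mitochondrial membrane, and ATP synthase spends that gradient to make ATP. Complex II is built entirely from nuclear genes, while complexes I, III, IV and ATP synthase need subunits from both genomes. In the neural lineage, quiescent stem cells are known for glycolysis and fatty acid oxidation, and differentiation towards neurons for a greater use of oxidative phosphorylation. Several complex IV subunits exist as alternative isoforms, of which Cox4i2 replaces the common Cox4i1 in a few tissues and Ndufa4l2 is a hypoxia-inducible relative of Ndufa4.

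After filtering, 4151 brain cells with 19518081 unique molecular identifiers (UMIs, counts of distinct RNA molecules) and 5608 lung cells with 31797069 UMIs were kept. The median was 4209 UMIs per cell in brain and 5585 in lung. Of the cell barcodes, 15 occurred in both libraries, 11 of them among the kept cells. Cells were placed in a class when at least 3 of its 6 marker genes had a UMI and more of them than of any other class. This gave 11 brain and 8 lung classes of at least 20 cells, and left 328 brain and 1657 lung cells without a class. In brain these were cells resembling quiescent neural stem cells (qNSC-like), active stem cells (aNSC-like), neuroblasts (NB-like), oligodendrocyte precursors (OPC-like), mature oligodendrocytes (mOL-like), ependymal cells, endothelial cells, pericytes, fibroblasts and microglia, together with cycling cells. Cells with at least 3 of 6 cell cycle genes were set apart as cycling, in brain only where they would otherwise be NB-like, aNSC-like, qNSC-like or without a class. Of the 432 brain cycling cells, 350 (81.0%) would otherwise be NB-like, 36 aNSC-like and 11 qNSC-like. The NB-like markers summed to 4824 CPM in them, those of aNSC-like cells to 486 and those of qNSC-like cells to 609 CPM. Names were checked against clusters made without the members. In brain, 100% of the endothelial-like, 99.4% of the pericyte-like and 98.4% of the qNSC-like cells lay in clusters of the same name, as did 98.7% of the lung endothelial-like and 96.6% of the lung neural-like cells. The 6 qNSC-like markers are also genes of astrocytes, which had no gate of their own. Of the qNSC-like cells, 45.3% lay in a cluster led by Htra1, Cxcl14, F3, Cldn10 and Hapln1, 33.0% in one led by Thbs4, Spp2 and Gfap and 20.1% in one high in mitochondrial counts, so the class that 4 comparisons refer to is mixed. Its cells in the first of these clusters had 32379 CPM of mitochondrial and 20349 CPM of nuclear members, those in the second 32892 and 19250 CPM, and those in the third 53118 and 5763 CPM. For NB-like cells the share was 86.3%, for lung pericyte-like cells 71.3%, for mOL-like cells 67.4% and for lung myofibroblast-like cells 43.1%, so values of the last are those of a mixed gate. No cluster took the name of the aNSC-like cells or of the cycling classes, and 51.9% of the brain cycling cells lay in 1 cluster named NB-like. For the lung cells gated on contractile smooth muscle genes it was 20.5%, so that class is called contractile-gated here, after its rule.

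Levels were the UMIs of a gene or set of genes per 1000000 UMIs of the class (CPM). With 3′ tags each RNA molecule counts once whatever its length, and capture can still differ between genes, so a ratio of mitochondrial to nuclear members is read between classes and not as a ratio of molecules. A gene was tested in a comparison when its mean was at least 50 CPM, and called when it differed by at least 2-fold with an interval that excluded 1. The share of all tested genes called the same way is given as the background.

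The summed level of the nuclear members in brain ranged from 10163 CPM in microglia-like cells to 22839 CPM in aNSC-like cells, a 2.25-fold range, and in lung from 16196 CPM in myofibroblast-like cells to 24004 CPM in thymocyte-like cells, a 1.48-fold range. The 11 mitochondrially encoded members ranged from 17716 CPM in microglia-like cells to 34415 CPM in qNSC-like cells of the brain, a 1.94-fold range, and over 1.38-fold in lung. The nuclear and mitochondrial parts did not follow one order. In qNSC-like cells (788 cells) the mitochondrial members stood at 1.84 UMIs per nuclear member UMI (interval 1.83 to 1.86), whereas NB-like cells (1640 cells) stood at 0.995 and brain cycling cells (432 cells) at 0.872. The 43 mOL-like cells stood at 2.28 and the 61 brain fibroblast-like cells at 1.83. The order of these 3 classes depended on cells in clusters high in mitochondrial counts. Without those clusters mOL-like cells (30 cells) stood at 1.78, qNSC-like cells (630 cells) at 1.63 and fibroblast-like cells at 1.83, while NB-like and brain cycling cells stood at 0.965 and 0.872. The remaining brain classes lay at 1.74 in microglia-like, 1.56 in endothelial-like, 1.52 in ependymal-like, 1.35 in OPC-like, 1.12 in aNSC-like and 1.01 in pericyte-like cells. Lung classes lay closer together, from 0.819 in thymocyte-like to 1.21 in myofibroblast-like cells, of which the latter stood at 1.03 without those clusters. As a description over classes that share 1 library, the nuclear level (scaled to nuclear UMIs) and the mitochondrial level had a Pearson correlation of 0.0701 in brain (n = 11) and 0.507 in lung (n = 8).

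**Figure D1:**
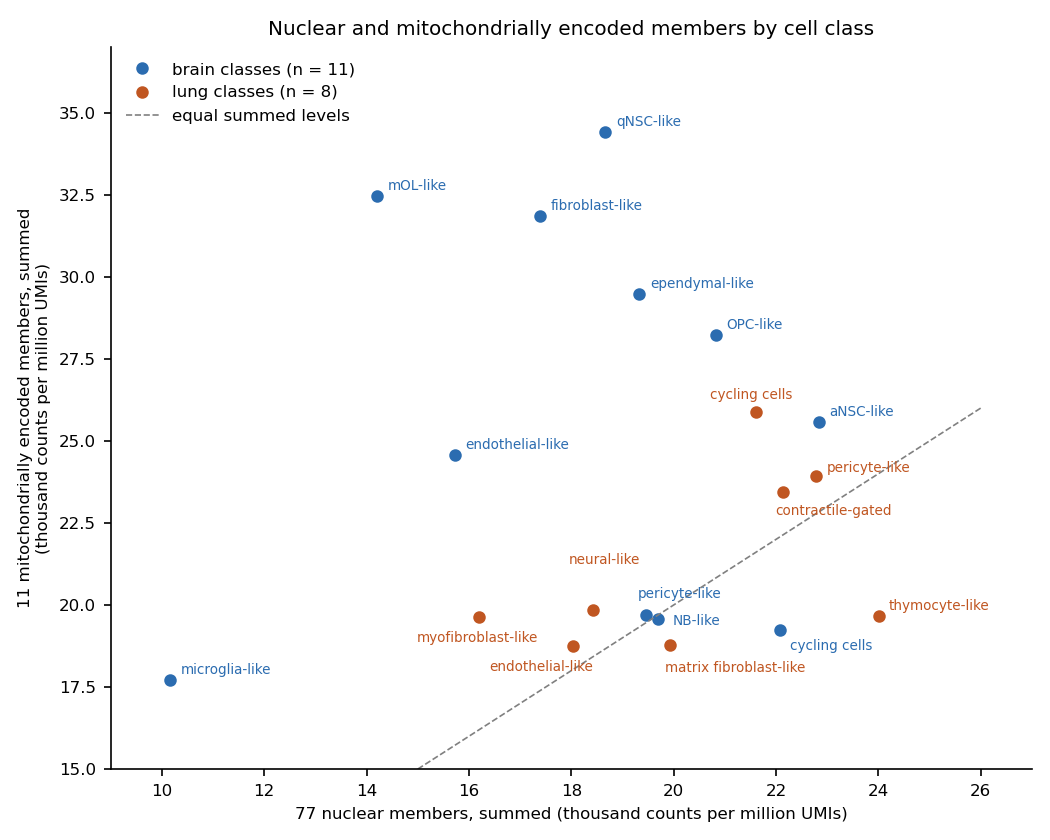
Each point is a class of cells, placed by the summed level of the 77 nuclear members (x axis, in 1000 CPM) and of the 11 mitochondrially encoded members (y axis, in 1000 CPM), with brain in blue, lung in orange and a dashed line where both sums are equal. The qNSC-like cells (18665 and 34415 CPM) stand far above the line, while NB-like cells (19685 and 19586 CPM) lie on it and microglia-like cells are lowest on both axes.

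Among the 11 mitochondrial genes the level was carried by few. mt-Cytb, the complex III subunit of the mitochondrial genome, was counted at 11216 CPM in qNSC-like and 6058 CPM in NB-like cells, and mt-Nd1, a membrane subunit of complex I, at 5104 and 3737 CPM. Conversely, mt-Co2, mt-Co3 and mt-Atp6, which encode core subunits of complex IV and ATP synthase, were almost uncounted, with 5, 5 and 16 UMIs in all kept brain cells and 14, 3 and 30 in all kept lung cells. Of their sequence, 100%, 99.9% and 99.5% lay in 60-base stretches also present in the transcript of another annotated gene, against 0% for mt-Nd1, mt-Nd6 and mt-Cytb. For mt-Nd3 that share was 97.9%, for mt-Nd4 61.9% and for mt-Co1 46.5%. Over the last 400 bases, the end nearest to 3′ tags, it was 0% for mt-Nd4 and 100% for mt-Co1. Whether reads of these genes were lost or shared because of such copies was not tested. The mitochondrial sum is thus mainly one of complex I and III genes, and values for mt-Nd3, mt-Co1, mt-Co2, mt-Co3 and mt-Atp6 are uncertain. mt-Nd6 lies on the opposite strand to the other genes, and with the strand setting of the counting not given, its UMIs cannot be told apart from antisense RNA.

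The nuclear members differed among themselves in how far they varied over the 19 classes. In complex I, Ndufa4l2 ranged from 0 to 2164 CPM, Ndufa4 had the widest range of the members counted in every class, from 27.6 to 821 CPM (29.8-fold), and Ndufb3, an accessory subunit, a narrow one of 1.88-fold. In complex II, Sdhd, a membrane anchor, ranged over 2.91-fold and Sdha, the flavoprotein subunit, over 2.59-fold. In complex IV, Cox4i2 ranged from 0 to 2078 CPM, and among members counted in every class Cox5a, a nuclear subunit beside Cox4i1 in the early assembly of the complex, had a 10.7-fold range, while Cox4i1 ran from 659 to 1447 CPM. In ATP synthase, the 3 genes for the c subunit of the membrane rotor had the widest ranges of those counted in every class, with 12.7-fold for Atp5g2 (6.74 to 85.8 CPM), 4.81-fold for Atp5g3 and 4.65-fold for Atp5g1. Microglia-like cells were among the lowest for many members, and their 37 cells give few UMIs per gene.

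Promoter sequence is shown for Ndufa4, Cox7a2l, Cox5a and Atp5l, picked by hand from the called nuclear members for which the reference held an entry. Other called members with an entry, among them Cox7a2, Ndufb5 and Ndufc2, are not shown. The sequences are the 250 bases before the start annotated in RefSeq, 5′ to 3′ on the strand of the gene, on build GRCm38.p6. Capitals mark matches on either strand to GCGCATG (a half-site of NRF1, an activator of respiratory genes), CCGGAAG (GABP, the other classical activator), AAGGTCA (the oestrogen-related receptors) and ACGTG or GCGTG (the core of the hypoxia response element). Matches may overlap, as ACGTG does with its own match on the other strand in Atp5l. Ndufa4 lies at chr6:11907451-11907700 on the minus strand and Cox7a2l at chr17:83514334-83514583 on the minus strand, both without a match. The GENCODE annotation starts these genes further upstream, Ndufa4 at 11907497 and Cox7a2l at 83517330. By that annotation the Ndufa4 window lies partly and the Cox7a2l window wholly inside the gene. The bases before the GENCODE start of Cox7a2l were not searched. Cox5a lies at chr9:57520982-57521231 on the plus strand with 3 matches, and Atp5l at chr9:44920743-44920992 on the minus strand with 5.
Ndufa4: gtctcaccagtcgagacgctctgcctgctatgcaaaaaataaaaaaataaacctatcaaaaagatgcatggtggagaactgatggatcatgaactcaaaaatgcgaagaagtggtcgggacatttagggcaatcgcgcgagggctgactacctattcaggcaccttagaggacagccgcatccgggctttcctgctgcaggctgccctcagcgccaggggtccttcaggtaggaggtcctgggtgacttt
Cox7a2l: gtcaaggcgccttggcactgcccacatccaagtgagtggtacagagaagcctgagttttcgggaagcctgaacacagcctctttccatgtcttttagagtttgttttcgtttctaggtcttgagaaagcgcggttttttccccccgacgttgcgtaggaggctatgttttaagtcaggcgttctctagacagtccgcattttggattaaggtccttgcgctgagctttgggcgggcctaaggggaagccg
Cox5a: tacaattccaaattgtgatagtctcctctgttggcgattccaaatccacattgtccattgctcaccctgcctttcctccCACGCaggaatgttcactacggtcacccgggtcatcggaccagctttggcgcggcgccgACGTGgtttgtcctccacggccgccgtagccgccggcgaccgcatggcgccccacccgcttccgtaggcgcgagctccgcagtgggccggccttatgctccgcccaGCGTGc
Atp5l: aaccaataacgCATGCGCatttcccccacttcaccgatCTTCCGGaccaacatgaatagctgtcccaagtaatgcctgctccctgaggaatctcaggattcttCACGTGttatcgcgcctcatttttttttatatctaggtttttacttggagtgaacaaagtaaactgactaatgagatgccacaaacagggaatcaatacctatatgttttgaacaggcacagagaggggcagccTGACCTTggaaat

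Of the 77 nuclear members, 61 had a promoter entry. GCGCATG was found in 10 of them (16.4%), against 3.68% of all 27025 promoters, and CCGGAAG in 10 (16.4%) against 7.83%. AAGGTCA was found in 5 (8.20%) against 4.70%, ACGTG in 12 (19.7%) against 18.5% and GCGTG in 24 (39.3%) against 30.9%. A match describes these letters in this window and no binding, and nothing follows from its absence.

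Within the brain lineage, the mitochondrial members were lower in NB-like than in qNSC-like cells and the nuclear members were not. Summed mitochondrial members stood at 19586 CPM in NB-like and 34415 CPM in qNSC-like cells, a ratio of 0.569 (0.565 to 0.574), and all 8 tested mitochondrial genes were below 1. The lowest was mt-Nd2, a complex I subunit, at 0.439 and the highest mt-Co1, the catalytic subunit of complex IV, at 0.877. The nuclear members gave a ratio of 1.05 (1.04 to 1.06), and 0.996 when clusters high in mitochondrial counts were left out. Complex I and II genes were lower in NB-like cells, with ratios of 0.929 and 0.774, and complex IV and ATP synthase genes were higher, with 1.17 and 1.16. Only 1 of 63 tested nuclear members was called higher and none lower, where 29.5% of all tested genes were called higher and 19.9% lower. The 10th to 90th percentile of nuclear members ran from -0.52 to 0.45 on the log2 scale, and that of all tested genes from -2.53 to 1.94.

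Cox7a2l, whose product helps to join complexes III and IV into supercomplexes, was the member called. It had 2010 UMIs in NB-like cells (278 CPM) and 235 in qNSC-like cells (75.1 CPM), a ratio of 3.70 (3.23 to 4.25). Its level was above 200 CPM in 5 of the 19 classes, the NB-like, aNSC-like, brain cycling, microglia-like and lung thymocyte-like cells, and at 75.1 CPM the qNSC-like cells were the lowest of all. Of its transcript, 16.0% lay in stretches shared with another annotated gene, and none of its last 400 bases.

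In the brain cycling cells, most of which also carried NB-like markers, the mitochondrial members were again lower and the summed nuclear members higher than in qNSC-like cells, while complex I, lower in NB-like cells, was here above 1. The mitochondrial members gave a ratio of 0.559 (0.554 to 0.565) to qNSC-like cells, with all 8 tested genes below 1, from mt-Nd2 at 0.377 to mt-Co1 at 0.904. Nuclear members gave 1.18, led by complex IV at 1.28 and ATP synthase at 1.33, while complex I stood at 1.04 and complex II at 0.986. Called higher were 2 of 63 nuclear members and none lower, with a background of 34% higher and 20.2% lower. Cox7a2l stood at 217 CPM, a ratio of 2.88 (2.49 to 3.35). Cox7a2, the common isoform of a small complex IV subunit, stood at 836 CPM against 380 CPM, a ratio of 2.20 (2.06 to 2.36). Both comparisons use the same qNSC-like cells, so their ratios are not independent.

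Ependymal-like cells, the ciliated lining of the ventricles, lay closer to qNSC-like cells. Their mitochondrial members gave a ratio of 0.857 (0.844 to 0.869) with 6 of 8 genes below 1, and the range ran from 0.522 for mt-Nd1 to 1.15 for mt-Nd5. The nuclear members gave 1.04, a direction that turned with the choice of cells (0.998 with clusters in place of gates). Against a background of 25.7% higher and 16.4% lower, 1 of 63 nuclear members was called higher and 1 lower, both accessory subunits of complex I. Ndufb5 stood at 705 CPM in the 106 ependymal-like cells and 264 CPM in qNSC-like cells, a ratio of 2.67 (2.39 to 2.99), and the highest of its other 17 classes was 405 CPM. Ndufc2 stood at 354 against 764 CPM, a ratio of 0.463 (0.405 to 0.528), and the qNSC-like level was the highest of all 19 classes.

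**Figure D2:**
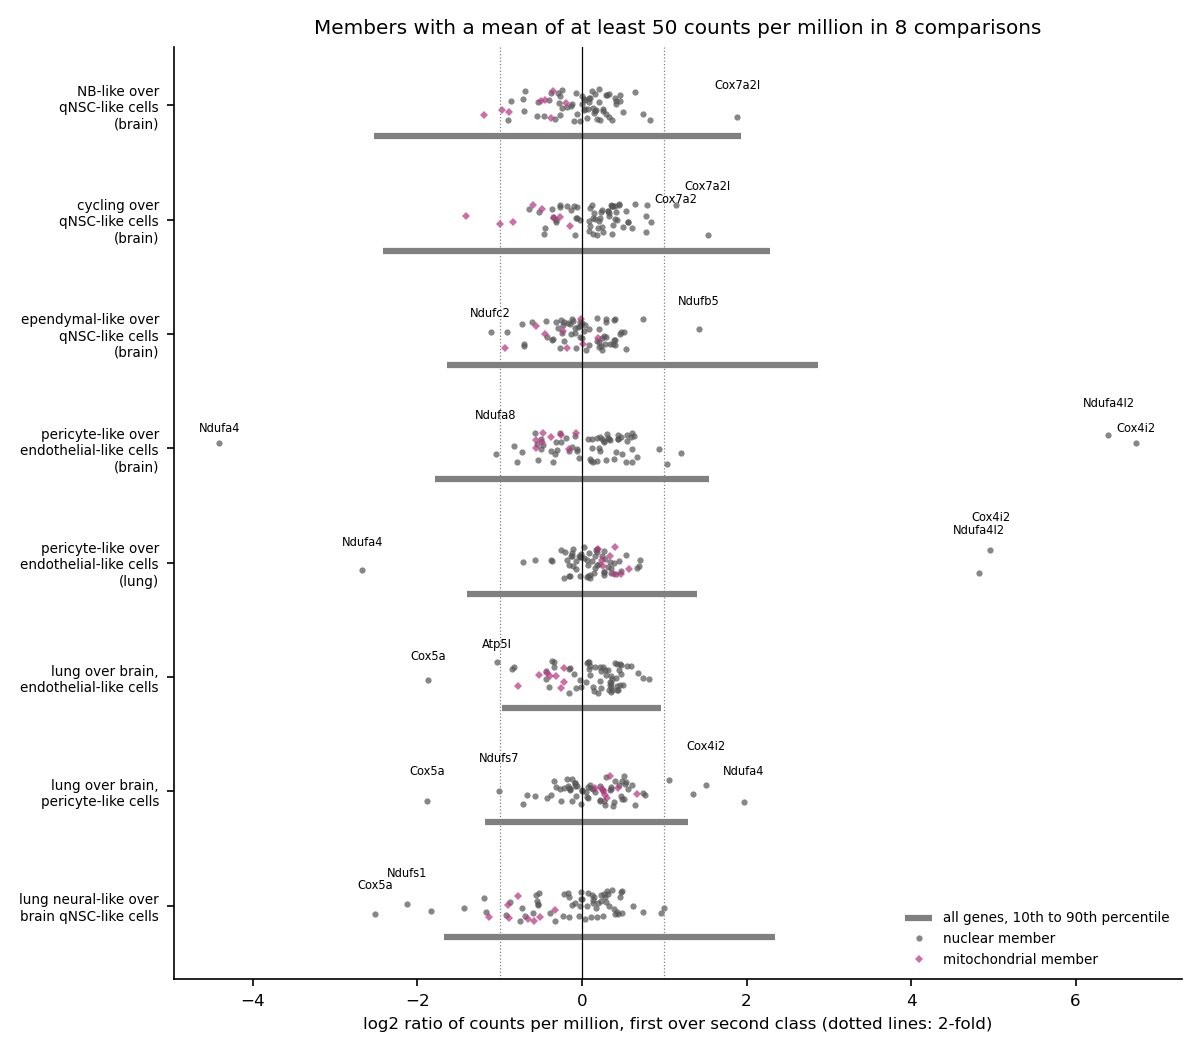
Each row is a comparison of 2 classes, each grey point a nuclear and each pink diamond a mitochondrially encoded member, placed by the log2 ratio of CPM, and each thick bar spans the 10th to 90th percentile of all tested genes. Most members lie between the dotted lines at 2-fold, and up to 2 called nuclear members with the largest fold in each direction are named, with Ndufa4, Ndufa4l2 and Cox4i2 farthest out in the rows of pericyte-like over endothelial-like cells.

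Pericyte-like cells stood apart from endothelial-like cells of the same tissue in 2 pairs of related genes. Cox4i2 (chr2:152754173-152765037, plus strand), the alternative form of the largest nuclear complex IV subunit, had 317 UMIs (729 CPM) in brain pericyte-like cells and 8 UMIs (6.84 CPM) in brain endothelial-like cells, a ratio of 107 (53.4 to 249). Ndufa4l2 (chr10:127514967-127517154, plus strand) had 941 UMIs (2164 CPM) and 30 UMIs (25.6 CPM), a ratio of 84.4 (58.7 to 126). Its relative Ndufa4 (chr6:11900292-11907497, minus strand) is now known as a subunit of complex IV but was counted with complex I by its symbol. It was lower, with 12 UMIs (27.6 CPM) against 684 UMIs (585 CPM), a ratio of 0.0472 (0.0243 to 0.0830). All other brain classes had Ndufa4 at 191 CPM or more. Positions are those of the GENCODE annotation on GRCm38. None of the 3 transcripts had a stretch of 60 bases shared with another annotated gene.

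The same 3 genes led the lung comparison. Cox4i2 had 15196 UMIs (2078 CPM) in the 1335 lung pericyte-like cells and 223 UMIs (66.5 CPM) in the 593 endothelial-like cells, a ratio of 31.2 (27.4 to 35.8). Ndufa4l2 had 13947 UMIs (1907 CPM) and 225 UMIs (67.1 CPM), a ratio of 28.4 (24.9 to 32.6). Ndufa4 had 787 UMIs (108 CPM) against 2292 UMIs (684 CPM), a ratio of 0.157 (0.145 to 0.171). The size of the lung folds depended on which cells entered. With called doublets removed the ratios of Cox4i2 and Ndufa4l2 were 144 and 136, and without the upper limit on genes per cell they were 16.9 and 16.4. In thymocyte-like cells, which should lack both genes, they stood at 83.4 and 43.5 CPM. In lung neural-like cells they stood lower, at 6.97 CPM (1 UMI) and 27.9 CPM (4 UMIs).

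Shares of the isoform pairs differed widely between classes. Of the Cox4i1 and Cox4i2 UMIs, Cox4i2 made up 64.1% in lung pericyte-like, 46.0% in brain pericyte-like, 44.5% in contractile-gated and 43.2% in lung cycling cells, against 6.08% in lung endothelial-like, 1.02% in qNSC-like and 0.848% in brain endothelial-like cells. Cox4i1 itself was counted throughout, at 855 CPM in brain and 1165 CPM in lung pericyte-like cells. Of the Ndufa4 and Ndufa4l2 UMIs, Ndufa4l2 made up 98.7% in brain pericyte-like, 94.7% in lung pericyte-like, 63.6% in lung cycling and 63.5% in contractile-gated cells. In brain fibroblast-like and lung myofibroblast-like cells it was 19.4% and in lung matrix fibroblast-like cells 15.5%, in lung endothelial-like cells 8.94% and in brain endothelial-like cells 4.20%. These classes were mixtures in lung. The cluster holding 52.5% of the cycling cells had 63.4% Cox4i2 and 97.2% Ndufa4l2, and another cluster led by cycling genes 1.71% and 2.23%. The 2 clusters named from contractile genes had 59.7% and 4.56% Cox4i2, and 94.2% and 14.3% Ndufa4l2. Ndufa4l2 made up 5.5% of its pair in the myofibroblast-gated cells inside clusters of that name and 28.2% in those outside, and 2.68% in the matrix fibroblast-like cluster. In pericyte-like cells Ndufa4 was scarce beside Ndufa4l2, while Cox4i1 and Cox4i2 were both well counted.

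**Figure D3:**
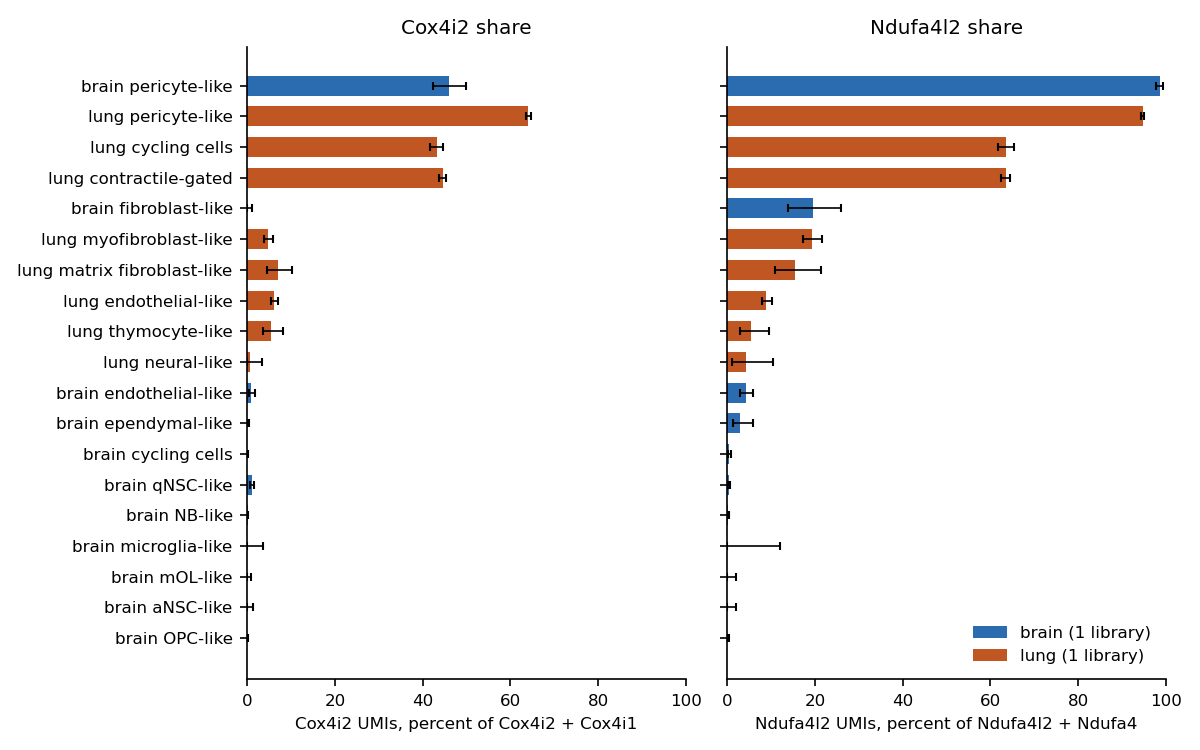
Bars give the percent of UMIs of an isoform pair that came from Cox4i2 (left) and from Ndufa4l2 (right) in each class, with exact 95% binomial intervals, brain in blue and lung in orange. Both pericyte-like classes are highest on the right (98.7% and 94.7%), while on the left the lung pericyte-like cells (64.1%) lie above the brain pericyte-like cells (46.0%).

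Counted per cell at an equal depth of 1000 UMIs, Ndufa4l2 had a UMI in 81.1% of 159 brain pericyte-like cells and 77.1% of 1318 lung pericyte-like cells (153 of 161 and 1216 of 1335 cells before thinning). It had one in 1.67% of brain and 3.06% of lung endothelial-like cells (6.91% and 8.26% before thinning), and in 3.09% of lung thymocyte-like cells. The lung endothelial-like value was thus no higher than that of thymocyte-like cells, and whether either is background was not tested. Cox4i2 had a UMI in 50.3% of brain and 70.6% of lung pericyte-like cells (84.5% and 82.1% before thinning), and in 0.669% and 2.72% of endothelial-like cells (1.97% and 8.77%), where the lung value is below the 5.15% of thymocyte-like cells. In brain NB-like cells it was 0 of 1609 cells for both genes at this depth, which allows a share of up to 0.186% with a UMI at 1000 UMIs. Before thinning, 2 of 1640 NB-like cells had a Cox4i2 UMI and 9 of 1640 an Ndufa4l2 UMI. Ndufa4 had a UMI in 2.52% of brain and 5.16% of lung pericyte-like cells (5.59% and 16.7% before thinning), against 43.8% and 46.0% of endothelial-like cells (78.3% and 88.4%). Thinning left out 2 brain and 17 lung pericyte-like cells and 5 and 4 endothelial-like cells. Median depths were 2552 and 5338 UMIs in the pericyte-like and 3808 and 5347 UMIs in the endothelial-like cells of brain and lung.

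The lung pericyte gate was mixed for these genes. Its 952 cells inside clusters of the same name had Ndufa4 at 5.58 CPM (27 UMIs), Ndufa4l2 at 2528 CPM and Cox4i2 at 2882 CPM. The 383 cells outside those clusters had Ndufa4 at 307 CPM (760 UMIs), Ndufa4l2 at 692 CPM and Cox4i2 at 504 CPM. So 760 of the 787 Ndufa4 UMIs of the gate came from cells outside those clusters. In the whole gate, 818 of 1335 cells had exactly the 3 markers needed. In brain, the 160 cells inside had Ndufa4 at 18.7 CPM and Ndufa4l2 at 2198 CPM. Among clusters made without the members, the 3 lung pericyte-like clusters had Ndufa4 at 5.25 to 34.6 CPM and Ndufa4l2 at 1884 to 2667 CPM, and the brain pericyte-like cluster 57.8 and 2069 CPM.

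**Figure D4:**
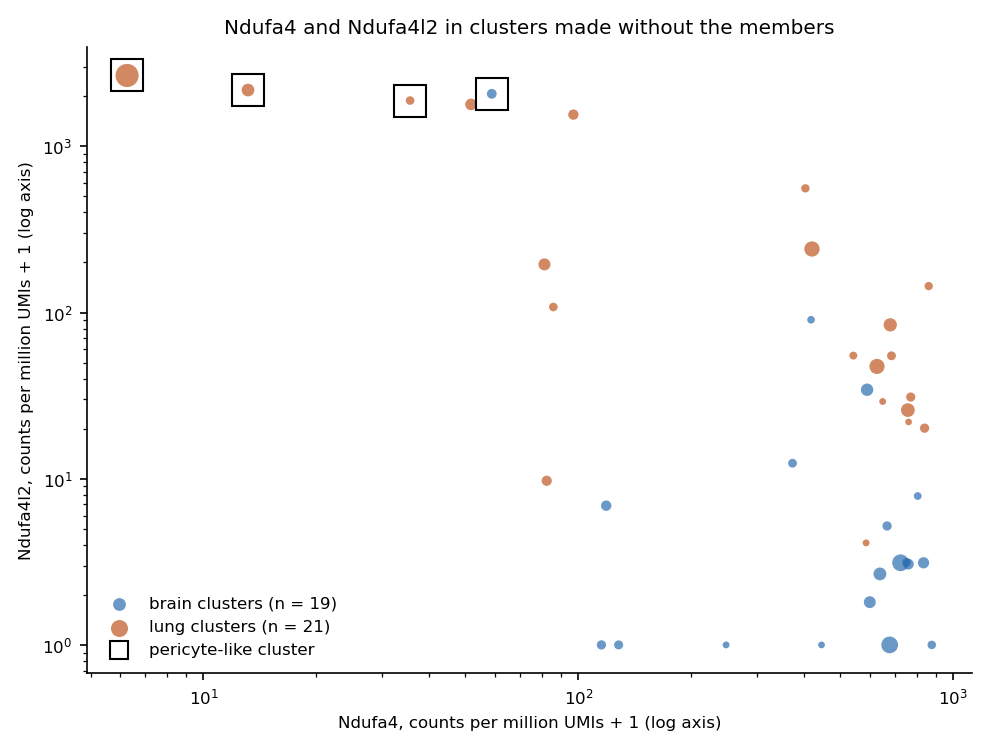
Each point is a cluster made without the members, placed by its Ndufa4 and Ndufa4l2 levels (CPM + 1, both axes logarithmic), with brain in blue, lung in orange, area growing with the number of cells and squares around pericyte-like clusters. The 4 pericyte-like clusters lie in the upper left, from 5.25 to 57.8 CPM of Ndufa4 and from 1884 to 2667 CPM of Ndufa4l2, together with 2 lung clusters without that name.

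Most of the difference in the summed nuclear members lay in the isoform genes. In brain, nuclear members gave a ratio of 1.24, with complex I at 1.31, complex II at 1.30, complex IV at 1.35 and ATP synthase at 1.04. Without the 7 tissue isoforms counted, the ratio was 1.05 (1.03 to 1.08), with complex I at 0.994 (0.952 to 1.04) and complex IV at 1.15 (1.09 to 1.21). These sums left out Ndufa4l2 but kept its partner Ndufa4, at 27.6 against 585 CPM. Keeping Ndufa4 lowers the ratios of complex I and of all nuclear members. Called higher were 4 of 65 and lower 2, where the background was 14.9% and 18.8%. Besides the isoforms these included Ndufs7, a core complex I subunit, at 354 against 174 CPM with a ratio of 2.04 (1.64 to 2.53) that fell just under the 2-fold threshold with clusters, and Ndufa8, an accessory subunit, with 0.484 (0.371 to 0.623). In lung, the nuclear ratio was 1.26, with complex IV at 1.54 and complex I at 1.30, and complex II and ATP synthase at 0.988 and 1.02. Without the tissue isoforms it was 1.05 (1.04 to 1.06), with complex IV at 1.11 and complex I at 1.04, again with Ndufa4 kept (108 against 684 CPM). Called higher were 2 of 62 and lower 1, the isoform genes above, where the background was 13% and 13.7%.

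The mitochondrial members went in opposite directions in the 2 tissues. In brain they stood at 19698 CPM in pericyte-like and 24571 CPM in endothelial-like cells, a ratio of 0.802 (0.782 to 0.821), and all 8 tested genes were below 1, from mt-Nd1 at 0.679 to mt-Cytb at 0.954. In lung they stood at 23932 against 18747 CPM, a ratio of 1.28 (1.26 to 1.29), and all 8 were above 1, from mt-Nd1 at 1.15 to mt-Nd6, the complex I subunit encoded on the other strand, at 1.48. Each interval excluded 1. None of the 8 was called in either tissue, since no ratio reached 2-fold. In the same pair of comparisons, 5 of 62 nuclear members (8.06%) had opposite directions with intervals that excluded 1, as did 272 of all 3133 genes tested in both (8.68%). Of the 5, Atp5e, the epsilon subunit of ATP synthase, stood at 0.706 in brain and 1.61 in lung and Ndufa7, a complex I subunit, at 0.602 and 1.31, and the others were Atp5j2, Ndufa1 and Sdhb. Depth and the mitochondrial share moved in opposite directions over the cells of each class, with a Spearman rho of -0.588 in lung pericyte-like, -0.252 in brain pericyte-like, -0.251 in brain endothelial-like and -0.186 in lung endothelial-like cells, and the part of depth in the ratios was not tested.

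**Figure D5:**
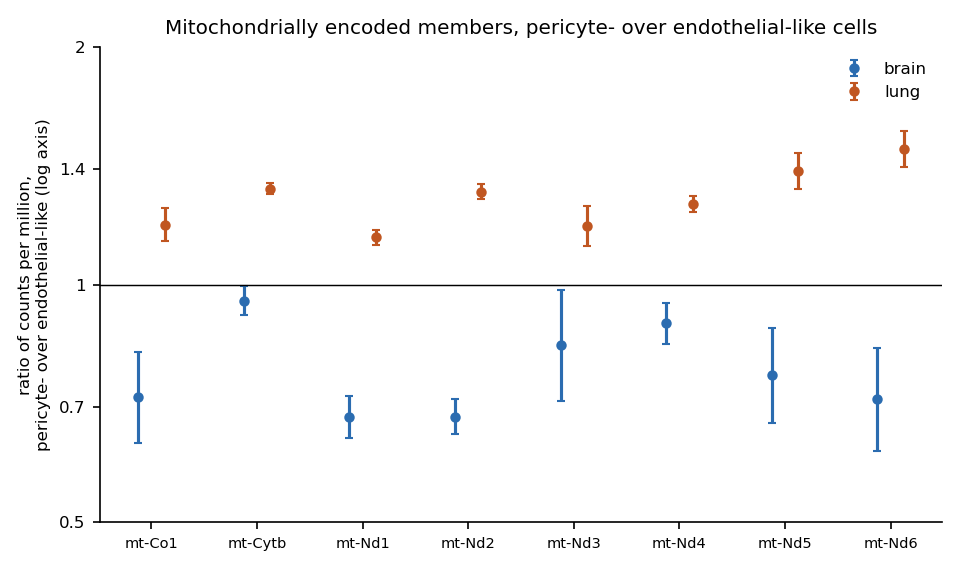
Points give, for each of the 8 tested mitochondrially encoded members, the ratio of CPM in pericyte-like over endothelial-like cells (logarithmic axis) with exact 95% intervals, brain in blue and lung in orange. All brain points lie below 1 (0.679 to 0.954) and all lung points above it (1.15 to 1.48).

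Between the tissues, endothelial-like cells of the lung had fewer mitochondrial and slightly more nuclear member UMIs than those of the brain. The mitochondrial ratio of lung over brain was 0.763 (0.752 to 0.774), with all 8 genes below 1, from mt-Nd2 at 0.581 to mt-Cytb at 0.859. The nuclear ratio was 1.15, with complex IV at 1.27, ATP synthase at 1.19, complex II at 1.14 and complex I at 1.05. None of 62 nuclear members was called higher and 2 were called lower, against a background of 9.74% and 9.79%. Tissue and library cannot be told apart in any comparison of lung with brain. The 6 red blood cell markers summed to 12026 CPM in brain endothelial-like cells, against 75.8 CPM in lung endothelial-like, 36.8 CPM in brain pericyte-like and 473 CPM in lung pericyte-like cells. Without the cells that held 10 or more of these UMIs, 7 of the 304 in brain and 1 of the 593 in lung, the sum in brain endothelial-like cells was 13.3 CPM, the mitochondrial ratio of lung over brain 0.755 and the nuclear one 1.13. In pericyte-like over endothelial-like cells of the brain the ratios were then 0.793 and 1.22, and Ndufs7, at 1.98, was no longer called.

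Among the members tested at a mean of at least 50 CPM, Cox5a had the lowest ratio of lung over brain in each comparison of gated classes. It had 138 UMIs (41.2 CPM) in lung and 176 UMIs (150 CPM) in brain endothelial-like cells, a ratio of 0.274 (0.217 to 0.344). In pericyte-like cells it stood at 32.5 against 120 CPM, a ratio of 0.272 (0.201 to 0.375), and in lung neural-like against brain qNSC-like cells at 34.9 against 199 CPM, a ratio of 0.175 (0.0568 to 0.412) from 5 lung UMIs. Over the lung classes it ranged from 25.6 to 87.0 CPM, and over the brain classes from 72.5 to 274 CPM. All lung classes other than the thymocyte-like cells were thus below every brain class. Of its transcript 26.5%, and of its last 400 bases 45.5%, was shared with another annotated gene, and a part of that in the tissue difference was not tested. The other member called lower in lung endothelial-like cells was Atp5l, the g subunit of ATP synthase, at 37.6 against 76.9 CPM, a ratio of 0.488 (0.370 to 0.648) that was 0.540, and no longer called, as a mean over cells. Its transcript was shared with another annotated gene over 82.9% of its length, so its count is uncertain.

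In pericyte-like cells both genomes were higher in lung, with a mitochondrial ratio of 1.21 (1.19 to 1.24) and all 8 genes above 1, and a nuclear ratio of 1.17. Complex IV stood at 1.44 (1.21 without the tissue isoforms), ATP synthase at 1.17, complex I at 1.04 and complex II at 0.865. Called higher were 4 of 65 nuclear members and lower 2, with a background of 14.7% and 12.5%. Cox4i2 stood at 2.85 (2.55 to 3.20), Atp5e at 649 against 255 CPM with 2.54 (2.11 to 3.10) and Ndufa1, an accessory complex I subunit, at 200 against 96.6 CPM with 2.08 (1.53 to 2.89). Lower besides Cox5a was Ndufs7 at 0.499 (0.422 to 0.594), a call at the edge of the threshold that was lost under 5 alternatives (0.502 to 0.583). Ndufa4 gave 3.90 (2.22 to 7.58) in the gated cells but 0.132 (0.0834 to 0.213) between the pericyte-like clusters of the 2 tissues, so no direction is given for it.

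The 29 lung neural-like cells, the class nearest to the question of the study, had a nuclear level whose ratio to that of brain qNSC-like cells had an interval including 1, and a lower mitochondrial level. The nuclear ratio was 0.987 (0.949 to 1.03), or 1.05 as a mean over cells, and the mitochondrial ratio 0.577 (0.555 to 0.599), with all 8 genes below 1, from mt-Nd3 at 0.457 to mt-Nd6 at 0.797. ATP synthase genes stood at 1.14, complex IV at 0.977, complex I at 0.913 and complex II at 0.681. None of 64 nuclear members was called higher and 6 were called lower, against a background of 26.8% and 18.7%. Besides Cox5a these were 5 complex I genes. Ndufs1, the largest core subunit, had a ratio of 0.230 (0.0471 to 0.678) from 3 lung UMIs, Ndufa12 0.280 from 6 and Ndufs3 0.371 from 6, and Ndufc2 stood at 0.438 (0.322 to 0.583) from 48, while the sixth was Ndufs5. Of the last 400 bases, 60.7% for Ndufs3, 39.1% for Ndufs5 and 32.1% for Ndufa12 were shared with another annotated gene. For Ndufs1 and Ndufc2 it was 0%. A part of such copies in these ratios was not tested. At this depth single members of this class are poorly measured.

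The other tissue isoforms were low throughout. Cox6b2, the testis form of a complex IV subunit, made up 13.2% of its pair in brain fibroblast-like cells (20 UMIs), 12.7% in lung matrix fibroblast-like cells (17 UMIs), 10.9% in lung cycling cells (125 UMIs) and 10.3% in brain pericyte-like cells (17 UMIs), against 0.343% in NB-like cells (14 UMIs). Of the 55 Cox7b2 UMIs in classed cells, 40 lay in qNSC-like cells, where it made up 4.03% of its pair. Cox7a1, the muscle form, reached 7.32% in brain fibroblast-like cells on 9 UMIs, and 2.14% in qNSC-like cells on 26. Cox6a2 reached 9.76% in microglia-like cells on 4 UMIs. Cox8b had 13 UMIs over all classes. Cox8c was not among the genes with counts in brain or lung, so no level is given for it.

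Lists of related genes were examined beside the members. Of the hypoxia response list, 6 of 9 tested genes were called lower in NB-like than in qNSC-like cells and 1 higher, with a median log2 ratio of -1.59 against 0.46 over all tested genes and a background of 19.9% lower and 29.5% higher. These were Epas1, a hypoxia-inducible transcription factor, at 0.0391, Vegfa, a vascular growth factor, at 0.0314, the glucose transporter gene Slc2a1 at 0.0611, Ldha, which makes lactate, at 0.333, Higd1a at 0.332 and P4ha1 at 0.0959, and Bnip3l, a mitophagy receptor, at 2.99 was the one higher. In pericyte-like cells, where Ndufa4l2 was high, 1 of 9 tested hypoxia genes was called higher and 3 lower than in brain endothelial-like cells, and 0 of 7 higher and 2 lower in lung, where the background was 14.9% higher and 18.8% lower in brain and 13% and 13.7% in lung. Ppargc1a, a coactivator of mitochondrial biogenesis, had 11 UMIs in NB-like and 315 in qNSC-like cells, a ratio of 0.0151, and 0.0172 in brain cycling cells.

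For the lists that follow, the shares of all tested genes called higher and lower were 29.5% and 19.9% for NB-like, 34% and 20.2% for brain cycling and 25.7% and 16.4% for ependymal-like cells, all against qNSC-like cells. Of the tricarboxylic acid cycle list, 1 of 12 tested genes was called lower in NB-like cells, which was citrate synthase (Cs) at 0.333, and none higher. In ependymal-like cells Cs, at 0.183, was again the 1 called of 13, and in brain cycling cells none of 12 was called. Of the assembly factors, 1 of 8 was called higher and 1 lower in NB-like cells (Cox19 and Ndufaf4), and none of 8 in brain cycling cells. In ependymal-like cells 2 of 13 were called higher (Ndufaf3 and Nubpl) and 2 lower (Ndufaf4 and Cox10). In pericyte-like against endothelial-like cells none of 7 tested assembly factors was called in brain (background 14.9% higher and 18.8% lower). In lung 1 of 7 was called higher, Ndufaf2 at 2.03, and none lower (background 13% and 13.7%). Genes for the expression of mitochondrial DNA were tested in small numbers, 3 in NB-like and 4 in brain cycling cells, and none was called there. In lung neural-like against brain qNSC-like cells, 5 of 10 hypoxia genes were called lower and 1 higher (Ndrg1), where the background was 18.7% lower and 26.8% higher. Of the list of cytochrome c and supercomplex factors, which shares Cox7a2l with the members and Higd1a with the hypoxia list, 1 of 5 was called higher and 1 lower in NB-like cells.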

How the data were processed

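The authors demultiplexed droplet 3′ libraries with bcl2fastq 2.19.1.403, extracted barcodes with UMI-tools (the submitters' notes and the methods name different versions), aligned reads to mm10 with STAR 2.7.1a and assigned them with featureCounts 1.6.4. The deposited values are raw counts of UMIs per gene and cell, without normalization. The annotation version, strand setting and barcode rule were not given in the sources used here. Following the filter in the study's methods, which the deposited tables of 4640 brain and 5981 lung barcodes had not passed through, barcodes were used with a gene number above 200 and below 4000 and a mitochondrial share below 40%, and doublets were not removed. The study plotted as many cells as the tables hold barcodes, so the cells used here are a smaller set. The filter left 4151 brain and 5608 lung cells of 1 library each, so no test over samples was made. Counts were summed per class, divided by the UMIs of the class, and compared by their ratio with an exact conditional binomial 95% interval (scipy 1.17.1, Python 3.11.15). A count of 0 allows up to 3 counts. Clusters, used to check the classes, came from Seurat 5.3.0 (R 4.3.3), with 20 principal components and resolution 0.8, and left the members out.

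The members, markers, lists and comparisons were chosen with earlier results of these data known. Named were, for each of the 8 comparisons, up to 5 called nuclear members with the largest fold in each direction, the tissue isoforms wherever counted, the highest and lowest mitochondrial member, and per complex the members with the widest range. Other genes were named after their values were seen, and some results that the rule would give are not reported here. Transcript copies were searched in the GENCODE annotation of the reference supplied here, as 60-base stretches. Promoters came from RefSeq. Alternatives were another denominator, other mitochondrial and gene limits, looser and stricter gates, clusters, means over cells, removal of doublets called by Scrublet (scanpy 1.11.5) and no minimum level. Leaving out clusters high in mitochondrial counts, the tissue isoforms or cells with 10 or more UMIs of red blood cell markers was added after seeing the data.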

Additional observations from a re-analysis of the deposited data

Results flagged for a closer look

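The summed mitochondrially encoded members gave a ratio of pericyte-like over endothelial-like cells of 0.802 in brain and 1.28 in lung. It was picked out because all 8 tested mitochondrial genes went one way in brain and the other way in lung. With 1 library per tissue, the difference was not tested.

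Barcodes left out for 40% or more mitochondrial counts were looked at because no comparison uses them. In the 54 such brain barcodes, the nuclear members made up 50798 CPM of the UMIs of nuclear genes, and in the 25 such lung barcodes 5675. In the kept cells the levels were 20227 and 21739 CPM.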

How the results depend on the processing

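No paired analysis was possible because each tissue has 1 library, and no replicate could be left out. Of the mitochondrial ratios and numbers of called nuclear members in the 8 comparisons, 134 recomputed values stayed within their interval or within 1.5 times the count. The other 42 did not, and no mitochondrial ratio changed direction. Outside this count, 69 recomputed nuclear sums and 305 ratios of named genes stayed, while 24 and 18 moved. Changes of direction are given below. The cause of each shift was not tested.

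For NB-like over qNSC-like cells the mitochondrial ratio was 0.524 without a limit on mitochondrial counts, 0.600 with a limit of 20%, 0.540 with clusters in place of gates, 0.588 without the clusters high in mitochondrial counts (chosen after seeing the data) and 0.545 as a mean over cells. In the same order it was 0.519, 0.581, 0.554, 0.591 and 0.537 for brain cycling cells, with 0.549 for a gate of 2 markers and 0.581 for one of 4. For ependymal-like cells it was 0.788, 0.885, 0.950, 0.905 and 0.880, with 0.871 without the upper limit on genes.

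For pericyte-like over endothelial-like cells it was 0.782 (clusters) and 0.730 (mean over cells) in brain. In lung it was 1.23 (limit of 20%), 1.33 (gate of 2 markers), 1.33 (clusters), 1.21 (without the high clusters), 1.45 (mean over cells) and 1.29 (doublets removed). For lung over brain it was 0.743 (clusters) and 0.740 (mean over cells) in endothelial-like cells, and 1.15 (limit of 20%), 1.25 (gate of 2 markers), 1.27 (clusters), 1.15 (without the high clusters) and 1.47 (mean over cells) in pericyte-like cells. For the lung neural-like cells it was 0.531 without the mitochondrial limit and 0.607 as a mean over cells.

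Without a minimum CPM, more nuclear members were called, and the shares of all genes called higher and lower were then as given in brackets. There were 8 of 77 for NB-like (1 higher, 7 lower, all genes 15.7% and 18.6%), 10 of 76 for brain cycling (3 and 7, 16.5% and 19.1%), 5 of 77 for ependymal-like (2 and 3, 15.6% and 11.4%), 7 of 75 for lung pericyte-like cells (4 and 3, 12% and 10.1%) and 6 of 73 for lung over brain endothelial-like cells (3 and 3, 8.15% and 8.8%). For lung over brain endothelial-like cells the count was 4 without the upper limit on genes and 1 as a mean over cells. The shares of all genes called under these settings are not given here, so these counts are not read further. The summed nuclear members changed direction for NB-like cells without the high clusters (0.996), and for ependymal-like cells with clusters (0.998) and without the high clusters (0.970), and for the lung neural-like cells as a mean over cells (1.05). Without the tissue isoforms, or without the cells with red blood cell counts (both chosen after seeing the data), none of the 8 did. Ndufa4 in lung over brain pericyte-like cells changed to 0.132 with clusters. With the stricter gate the lung matrix fibroblast-like class (14 cells), and with clusters the aNSC-like class, gave no value. Depth limits single members in classes of few cells, such as the 29 lung neural-like cells.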

Other observations

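Some clusters made without the members had far more mitochondrial member UMIs per nuclear member UMI than the rest. The clusters called high in mitochondrial counts were those where this value was above 5. Clusters 7, 9 and 11 of the brain and 6, 9 and 13 of the lung had 9.53 to 23.9 mitochondrial member UMIs per nuclear member UMI, and the other clusters 0.848 to 1.92. In the high clusters the nuclear members stood at 3275 to 5833 CPM and the mitochondrial members at 48498 to 78393.5 CPM. In the other clusters they stood at 10734.5 to 27511 CPM and 13214 to 35572 CPM. The cells of the high clusters were shallow, with median UMIs of 866 to 2164 per cell. Without them the qNSC-like class fell from 788 to 630 cells and the NB-like class from 1640 to 1563.

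The c subunit of ATP synthase, which forms its rotor ring, is encoded by 3 genes for the same mature protein. Of the Atp5g2 and Atp5g3 UMIs, Atp5g2 made up 6.61% (pericyte-like) to 30.4% (microglia-like) in the brain classes, with 25% in aNSC-like and 17.9% in OPC-like and in brain cycling cells. In the lung classes it made up 2.20% (contractile-gated) to 5.5% (endothelial-like). Both ends of the brain range rest on few Atp5g2 UMIs, with 8 (interval 2.90% to 12.6%) and 7 (13.2% to 52.9%), and the interval of the lung endothelial-like cells (4.10% to 7.21%) overlaps that of the brain pericyte-like cells. Tissue and library cannot be told apart. Over 37.3% of its length the Atp5g2 transcript is shared with another annotated gene, and a part of that in these shares was not tested.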
